A study of Bos taurus with 8 samples.

Results

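The levels of 10 genes for Polycomb proteins and histone-modifying enzymes were followed through early bovine development. They were taken by name from the deposited expression table, which held all 10 among its 18825 genes. JARID2, EZH1, EZH2, EED and SUZ12 belong to Polycomb repressive complex 2 (PRC2), KDM4A, KDM5B and KDM6B remove methyl groups from histone H3, and HDAC1 and HDAC8 are lysine deacetylases. The table covered 286 single cells of wildtype embryos in 6 libraries, each a pool of barcoded cells, with a median of 150770.5 reads per cell. The labels describe another 2 libraries, from embryos injected with BE3 base editor mRNA with or without SOX2 sgRNAs, which were not analysed here. The authors' cell table gave each cell an age and a class. Morula cells were from day 6 after fertilization, EB cells from day 7, MB ICM and MB TE cells from day 8, and LB EPI, LB PE and LB TE cells from day 9. ICM, TE, EPI and PE are the field's short forms of inner cell mass, trophectoderm, epiblast and primitive endoderm (hypoblast), and EB, MB and LB are printed as given.

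PRC2 places methyl groups on lysine 27 of histone H3, a mark of silenced developmental genes. EZH2 or its paralog EZH1 is the catalytic subunit, EED binds the finished mark and SUZ12 holds the core together. JARID2 has the fold of a demethylase without its activity, and it recruits PRC2 and stimulates it. KDM6B erases the lysine 27 mark, KDM5B erases the lysine 4 mark of active promoters, and KDM4A acts on lysine 9 and lysine 36. HDAC1 is a nuclear class I deacetylase of several corepressor complexes. HDAC8, encoded on the X chromosome, deacetylates the cohesin subunit SMC3.

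A class average was the mean over the cells of a library, in CPM, the reads of a gene per 1000000 assigned reads of the cell, where the library held at least 3 cells of the class. There were 16 such averages. EB had 1 (replicate 4), Morula 2 (replicates 4 and 6), MB ICM 3 (replicates 1, 2 and 5), MB TE 3 (1, 2 and 3), LB EPI 3 (2, 3 and 5), and LB PE and LB TE 2 each (3 and 5). All averages of days 6 and 7 came from replicates 4 and 6 and all of days 8 and 9 from the others (replicate 1 also held 2 EB cells, too few for an average), and between those pairs of days the age of the embryos and the library cannot be told apart. The embryos behind each library are not named, so the p-values do not measure the spread between embryos. They rest on the spread of the averages around their class means, pooled over the 7 classes, with the library as a block. Part of that spread may be technical. Most markers went with the class labels in the limma tests described below, with exceptions. Of 10 epiblast markers 7 were lower in LB TE than in LB EPI, and of 10 trophectoderm markers 8 were higher. All 8 tested hypoblast markers were higher in LB PE than in LB EPI. Of the epiblast markers 5 were lower in LB PE than in LB EPI and 1, ETV5, was higher (23.8 against 1.75 CPM). The epiblast factor NANOG averaged 718 to 1211 CPM in LB EPI and 22.1 to 82.9 in LB TE, the keratin KRT8 at least 15477 in both TE classes and at most 3580 in all others, and the hypoblast receptor PDGFRA 265 to 333 in LB PE and at most 123 elsewhere. SOX17, also a hypoblast marker, was at 0 CPM in LB PE, and FOXA2, another, was at 0 in LB PE of replicate 5. LB PE cells were shallow: the median cell had 39210 reads, where that of LB EPI had 196981 and that of LB TE 196521.

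**Figure D1:**
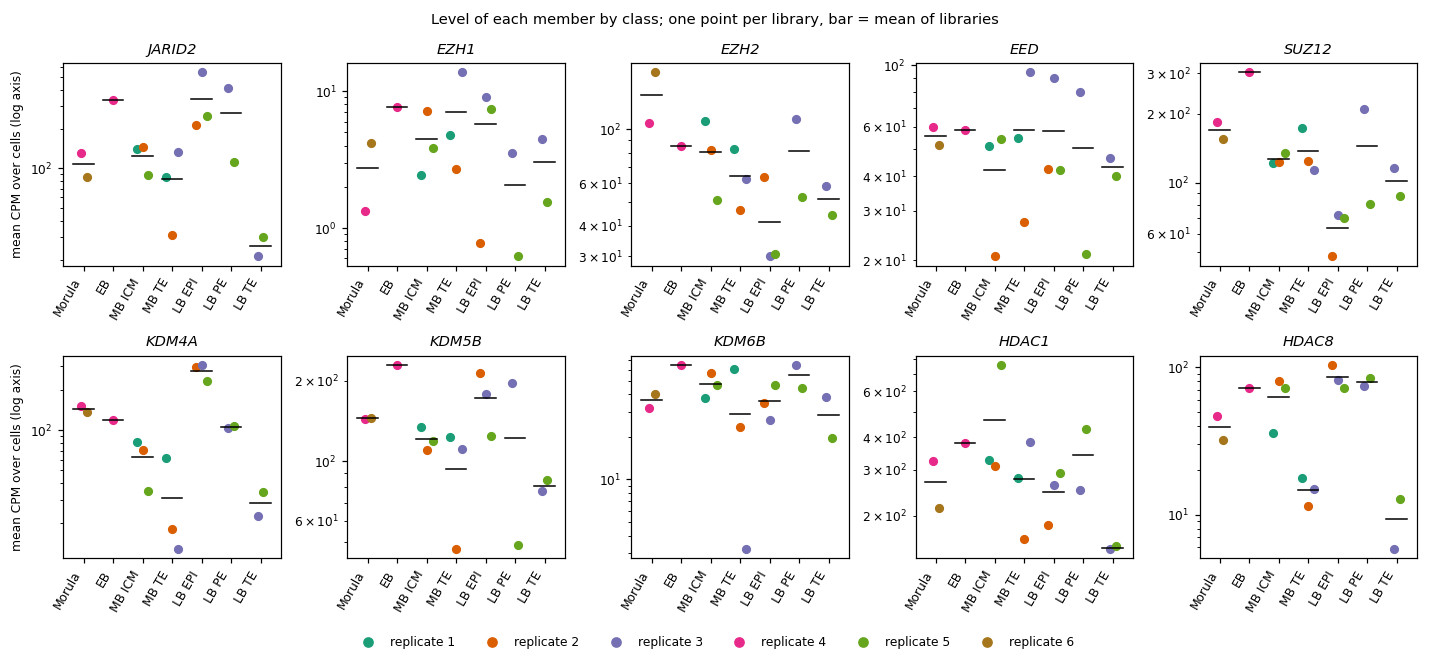
Mean CPM over cells (log axis) of each of the 10 genes in the 7 classes, with 1 point per library, coloured by replicate, and a bar at the mean of libraries. By class mean JARID2, KDM4A and HDAC8 are lowest in LB TE and highest in LB EPI, while EED and EZH1 show no class whose libraries stand apart from all others. JARID2 is at 336 CPM in both LB EPI and EB. The HDAC8 libraries of LB EPI overlap those of LB PE, and the KDM4A and HDAC8 libraries of LB TE overlap those of MB TE.

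JARID2, KDM4A and HDAC8 were far lower in day 9 trophectoderm than in day 9 epiblast, while EZH2, EED and SUZ12 of the PRC2 core did not pass the test. JARID2 averaged 214, 543 and 252 CPM in LB EPI (replicates 2, 3 and 5) and 21.3 and 29.9 CPM in LB TE (replicates 3 and 5). Every LB EPI library lay above both LB TE libraries, with a ratio of the class means of 13.2. The log2 change on the scale of log2(CPM + 10), which understates changes of low genes, was -3.26 (SE 0.47, adjusted p = 9.11e-05, limma over 12540 genes). KDM4A averaged 295, 308 and 234 CPM in LB EPI and 22.6 and 34.6 CPM in LB TE. Here too the groups did not overlap, and the log2 change was -2.88 (SE 0.38, adjusted p = 2.31e-05). HDAC8 averaged 104, 81.4 and 71.7 CPM in LB EPI and 5.85 and 12.8 CPM in LB TE, again without overlap, with a log2 change of -2.30 (SE 0.34, adjusted p = 8.73e-05). Here and below, the share of all genes without overlap was not counted. With so few libraries per class, lack of overlap therefore only describes the values. Both libraries that held the classes showed all 3 differences. Within replicates 3 and 5 the log2 differences were -4.14 and -2.72 for JARID2, -3.28 and -2.46 for KDM4A, and -2.53 and -1.84 for HDAC8.

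These 3 of the 10 genes were called lower in LB TE and 0 higher, where 6.90% of all tested genes were called lower and 15.2% in either direction. The 10 were chosen with earlier results of these data known, so here and below such counts describe them and do not test enrichment. The median log2 change of the 10 was -0.58, against -0.04 over all tested genes. Among the 7 that missed the threshold, KDM5B stood at 77.1 and 84.9 CPM in LB TE and at 215, 178 and 124 in LB EPI, and HDAC1 at 149 and 153 against 184, 262 and 292. The log2 changes of -0.99 (adjusted p = 0.107) and -0.76 (adjusted p = 0.169) did not pass, and neither gene's libraries overlapped between the classes. KDM5B was called with only cells of at least 20000 reads (adjusted p = 0.0425). SUZ12 lay the other way, at 116 and 87.6 CPM in LB TE against 47.7, 72.1 and 69.8 in LB EPI, without overlap (log2 change 0.59, adjusted p = 0.268). It was called higher by limma-voom on summed reads (adjusted p = 0.0128), a fit that called 25.3% of all genes. The 95% intervals of the log2 change were -0.41 to 1.11 for EZH2, -1.28 to 0.48 for EED and -1.19 to 0.76 for KDM6B, so differences of up to these sizes were not excluded. Cell cycle markers moved with this comparison: the summed level of the 24 genes was 5790 to 6990 CPM in LB EPI and 2256 to 2762 in LB TE, and 8 of the 24 were lower in LB TE. Their part in the result was not tested.

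**Figure D2:**
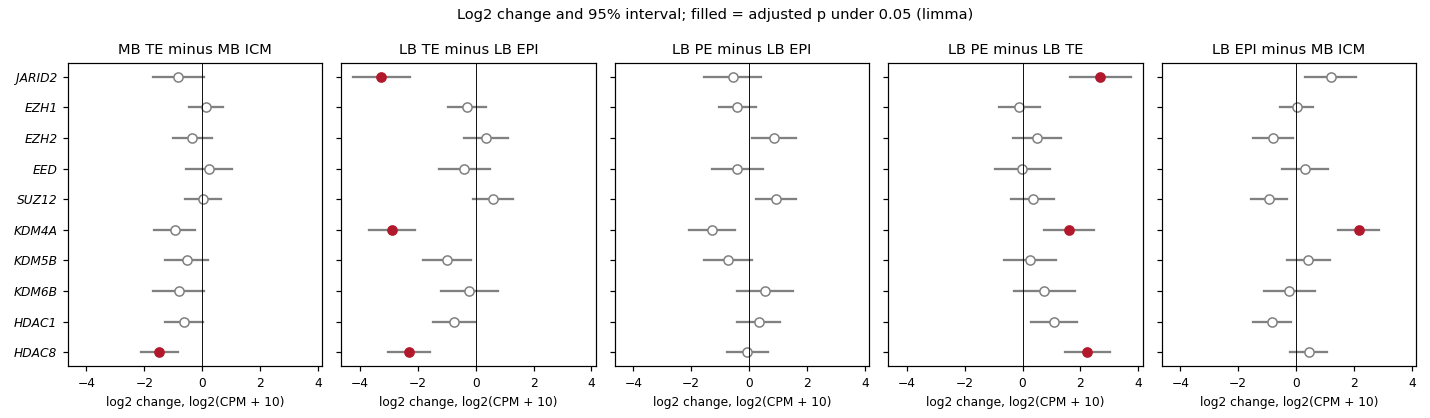
Log2 change of each gene on the log2(CPM + 10) scale with its 95% interval in 5 comparisons, filled where the adjusted p from limma was under 0.05. JARID2, KDM4A and HDAC8 carry all the filled points, with HDAC8 alone in the day 8 comparison and KDM4A alone in LB EPI minus MB ICM.

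On day 8 HDAC8 was the 1 member that passed the test. It averaged 17.8, 11.5 and 14.8 CPM in MB TE (replicates 1, 2 and 3) and 35.9, 80.4 and 72.1 CPM in MB ICM (replicates 1, 2 and 5). The groups did not overlap, and the ratio of ICM to TE means was 4.27. The log2 change was -1.48 (SE 0.31, adjusted p = 0.00316), with differences of -0.72 within replicate 1 and -2.07 within replicate 2. The call was lost without replicate 2, where the log2 change was -1.16 (adjusted p = 0.11). So 1 of 10 genes was called lower and 0 higher, against 4.11% lower and 10.1% in either direction among all tested genes. The summed cell cycle list was 2589 to 3149 CPM in MB TE and 3591 to 5298 in MB ICM, with 4 of its 24 genes lower in MB TE, and its part in the result was not tested.

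KDM4A and JARID2 sat lower in MB TE on average, with overlapping libraries. KDM4A was at 61.6, 18.1 and 12.9 CPM in MB TE, the last from 3 cells, and 81.8, 70.6 and 35.3 in MB ICM, the last from 5 cells (log2 change -0.95, adjusted p = 0.0858). It was called by limma-voom on summed reads (adjusted p = 0.0181) and with only cells of at least 20000 reads (0.0333). It was also called without replicate 1 (log2 change -1.26, adjusted p = 0.0357), but without replicate 2 it was at -0.64 (adjusted p = 0.489). KDM6B missed the test with all libraries (-0.82, adjusted p = 0.256), passed it without replicate 1 (-1.54, adjusted p = 0.0399) and was at -0.21 without replicate 3 (adjusted p = 0.812). KDM6B rested on 1 uneven class, with MB TE at 60.1, 23.6 and 3.22 CPM against 37.9, 56.9 and 46.4 in MB ICM. JARID2 was at 85.6, 31.2 and 133 CPM in MB TE, the last from 3 cells, and 141, 145 and 88.8 in MB ICM (log2 change -0.83, adjusted p = 0.247, and 0.0396 by limma-voom), and without replicate 2 the change was -0.26 (adjusted p = 0.857). The difference between days, LB TE minus LB EPI less MB TE minus MB ICM, was -2.42 for JARID2 (SE 0.63) and -1.93 for KDM4A (SE 0.51). With 1 library left out these ran from -3.17 to -1.50 for JARID2, the latter without replicate 3 (adjusted p = 0.689), and from -2.23 to -1.60 for KDM4A. These tests of the change between days missed the threshold over all genes (limma adjusted p = 0.116 and 0.117). Of the 10 genes 0 passed limma's test, where 0.367% of all genes did, and limma-voom called 0, against 0.973% of all genes. An unadjusted p under 0.05 was found for 2 of the 10 and for 9.60% of all genes.

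The single cells showed the same order. JARID2 had a median of 225 CPM per cell in LB EPI (lowest cell 53.9, highest 1141) and 19.6 in LB TE (0 to 89.4). Reads of it were found in 100% of LB EPI cells and 90.3% of LB TE cells. With each cell thinned to 20000 reads, which left out 22 shallower cells in all, of which 5 were LB PE and 2 LB EPI, the shares were 97.7% of 43 cells (exact 95% interval 87.7 to 99.9) and 32.3% of 31 cells (16.7 to 51.4). KDM4A was found in 100% of thinned LB EPI cells (91.8 to 100) and 32.3% of LB TE cells (16.7 to 51.4), and HDAC8 in 86.0% (72.1 to 94.7) and 25.8% (11.9 to 44.6). Before thinning these shares were 100% and 87.1% for KDM4A and 100% and 64.5% for HDAC8. In MB TE 18.9% of thinned cells had an HDAC8 read (7.96 to 35.2), against 57.4% in MB ICM (42.2 to 71.7). Unthinned, these shares were 83.8% and 76.5%, at median depths of 198116 and 132481 reads. The intervals cover counting error only and treat cells as separate draws, which cells of 1 library are not.

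**Figure D3:**
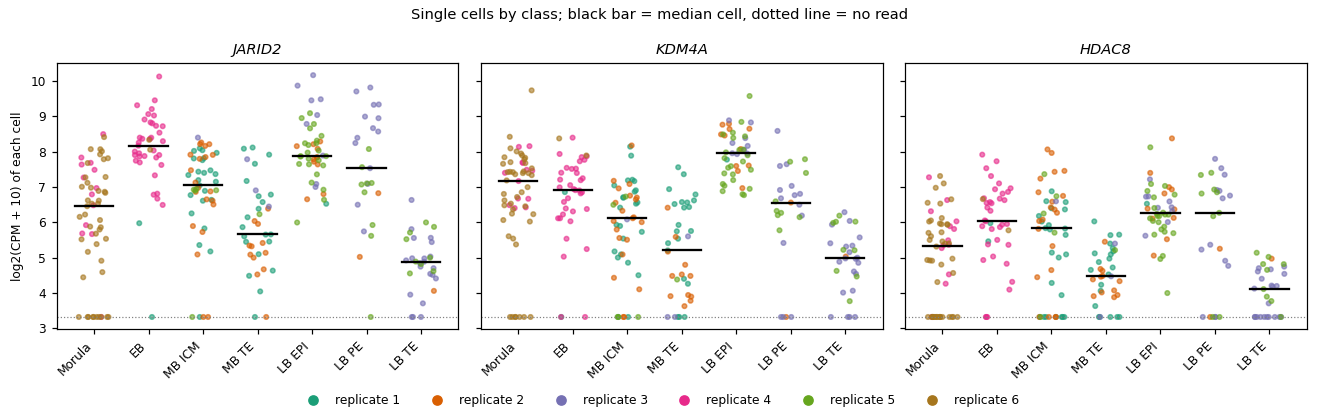
Level of JARID2, KDM4A and HDAC8 in each of 286 cells as log2(CPM + 10), by class and coloured by replicate, with a black bar at the median cell and a dotted line where no read was found. The LB TE cells lie low for all 3 genes and the median HDAC8 cell is at 12.4 CPM in MB TE and 7.45 in LB TE against 30.3 to 67.5 in the other classes, with many cells of Morula and MB ICM as low as those of MB TE.

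Day 9 primitive endoderm had JARID2 and HDAC8 levels well above those of day 9 trophectoderm, with KDM4A between trophectoderm and epiblast. HDAC8 was at 74.8 and 84.6 CPM in LB PE (replicates 3 and 5), inside the LB EPI range. Its log2 change from LB EPI was -0.06 (95% interval -0.78 to 0.66), and from LB TE it was 2.24 (SE 0.37, adjusted p = 0.000806). JARID2 was at 413 CPM in LB PE of replicate 3 and 113 in replicate 5, a wide spread, with a log2 change of 2.69 from LB TE (SE 0.51, adjusted p = 0.00269). That call was lost without replicate 3 (log2 change 1.62, adjusted p = 0.104). KDM4A was intermediate, at 104 and 107 CPM in LB PE, above both LB TE libraries and below all 3 LB EPI libraries. Its log2 change from LB TE was 1.60 (SE 0.41, adjusted p = 0.0221). The change stayed between 1.39 and 1.80 in the following fits, none of which called it: without replicate 3 (adjusted p = 0.192) or 5 (0.124), without the library block (0.0605), without the filter on low values (0.0694) and when log2 values of single cells were averaged (0.0521).

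Against LB TE 3 of the 10 genes were thus called higher in LB PE, where 2.46% of all genes were called higher and 5.85% in either direction. HDAC1 missed the threshold, at 252 and 432 CPM in LB PE against 149 and 153 in LB TE, without overlap (log2 change 1.08, limma adjusted p = 0.105). It was called with only cells of at least 20000 reads (adjusted p = 0.0221). Of the cell cycle list 4 of 24 were higher in LB PE, at a summed 3593 to 4705 CPM against 2256 to 2762 in LB TE, and its part in the result was not tested. Against LB EPI 0 of the 10 were called by limma, where 5.39% of all genes were. An unadjusted p under 0.05 was found for 3 of the 10 and for 18.9% of all genes. The first of these 3 was KDM4A (log2 change -1.28, adjusted p = 0.0529). It passed without replicate 1 (adjusted p = 0.027), and 6 of 15 alternatives called it. The other two were PRC2 core genes with higher values in LB PE. SUZ12 was at 208 and 81.0 CPM in LB PE against 47.7, 72.1 and 69.8 in LB EPI (log2 change 0.94, adjusted p = 0.108). SUZ12 was the 1 of the 10 that limma-voom on summed reads called (adjusted p = 0.0163), in a fit that called 3.21% of all genes. It was also called without replicate 5, which leaves replicate 3 as the only LB PE average (log2 change 1.63, adjusted p = 0.0342), and was at 0.35 without replicate 3 (adjusted p = 0.643). EZH2 was at 110.1 and 52.7 CPM against 63.6, 30.0 and 30.7 (log2 change 0.86, adjusted p = 0.196), and its change was 0.31 without replicate 3 (adjusted p = 0.803). The LB PE averages rest on 14 and 9 cells of low depth, and the part of depth in these values was not tested.

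From the day 8 inner cell mass to the day 9 epiblast KDM4A rose, while EZH2 and SUZ12 of the PRC2 core had lower values that did not pass the test. KDM4A went from 81.8, 70.6 and 35.3 CPM to 295, 308 and 234, a ratio of means of 4.46 and a log2 change of 2.16 (SE 0.35, adjusted p = 0.000685). It was called under all 15 alternatives, with differences of 1.92 within replicate 2 and 2.43 within replicate 5. The MB ICM average of replicate 5 rests on 5 cells, of which 2 had KDM4A reads. KDM4A was the 1 member called, higher, against 3.29% of all genes called higher and 5.10% in either direction. JARID2 was also higher in every LB EPI library than in any MB ICM library, with a log2 change of 1.19 that missed the test (adjusted p = 0.126, and 0.0425 when log2 values of single cells were averaged). SUZ12 went from 121, 123 and 135 CPM to 47.7, 72.1 and 69.8, without overlap (log2 change -0.93, SE 0.30, adjusted p = 0.0752), and was called by limma-voom (adjusted p = 0.00261) and with only cells of at least 20000 reads (0.0143). EZH2, at 108, 82.6 and 51.2 CPM in MB ICM, had a log2 change of -0.79 (adjusted p = 0.204), and HDAC1 of -0.83 (adjusted p = 0.156), from 327, 309 and 759 CPM. The last HDAC1 value is from the 5 cells of replicate 5, of which 1 had 2633 reads and 1139 CPM of HDAC1. Other markers moved with this step. The summed hypoblast list was 3987 to 4380 CPM in MB ICM and 610 to 870 in LB EPI, with 6 of its 8 tested genes lower, and the cell cycle list 3591 to 5298 against 5790 to 6990, with 1 of 24 (TOP2A) higher. Their part in these results was not tested.

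No member passed the test in the other 3 steps. From MB TE to LB TE JARID2 had a log2 change of -1.23 (adjusted p = 0.676) and HDAC1 of -0.95 (0.632), both without overlap between the days, and these 2 of the 10 had an unadjusted p under 0.05. Leaving out 1 library moved the JARID2 value to between -1.69 (without replicate 5) and -0.54 (without replicate 3). From MB ICM to LB PE 1 of the 10 did, KDM4A at 0.88 (adjusted p = 0.349). From Morula to EB 1 did, JARID2, at 131 and 86.4 CPM in Morula and 336 in EB (log2 change 1.52, adjusted p = 0.906, and 1.30 within replicate 4). In these steps limma called 0.191%, 0.702% and 0.0797% of all genes, and 5.59%, 12.6% and 5% had an unadjusted p under 0.05. Limma-voom called 0 of the 10 in each, against 0.510%, 0.0159% and 0.183% of all genes. EB had 1 average, so its spread was taken to be that of the other classes. In that library SUZ12 stood at 303 CPM against 183 and 155 in Morula, and KDM5B at 229 against 144 and 145.

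Over all classes the libraries of most neighbouring classes overlapped for the other members. EZH2 was highest in Morula, at 106 and 172 CPM, above the single EB value of 85.1, and the order below ran LB PE, MB ICM, MB TE, LB TE and LB EPI, each overlapping the next. For SUZ12 the order was EB, Morula, LB PE, MB TE, MB ICM, LB TE and LB EPI, where EB did not overlap Morula, nor MB ICM LB TE, nor LB TE LB EPI. EED ran from class means of 42.1 CPM in MB ICM to 58.8 in MB TE, and all neighbours overlapped. EZH1 was close to the detection limit, with 0.622 to 13.8 CPM per average and 7 to 50 reads per class in all. It entered the tests through 1 average, the 3 MB TE cells of replicate 3, and was found in at most 19.4% of the thinned cells of a class. Class means of KDM6B ran from 28.8 CPM in LB TE to 64.7 in EB, with all neighbours overlapping. Those of HDAC1 ran from 151 CPM in LB TE, below every other library, to 465 in MB ICM, where replicate 5 alone stood at 759.

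Across the 16 averages the 3 genes had like patterns, with Pearson r of log2(CPM + 10) of 0.79 between JARID2 and HDAC8, 0.73 between JARID2 and KDM4A and 0.76 between KDM4A and HDAC8. Of the other members KDM5B came closest, with r of 0.738, 0.605 and 0.509 with JARID2, KDM4A and HDAC8. Its r with JARID2 was no lower than that of KDM4A, so the 3 did not stand apart from all other members. EZH2 had r of 0.02, 0.03 and -0.02 with JARID2, KDM4A and HDAC8. The 5 most similar tested genes were LAPTM4B (0.90), RAD54L, AHCY, WDR70 and DPYSL2 (0.87) for JARID2, and SLC39A10 (0.95), NDC80, MSH6, NUP85 and FSBP (0.91) for KDM4A. For HDAC8 they were KAT7 (0.96), LOC515333, LAPTM4B, H3F3A and PSIP1 (0.92). KAT7 is a histone acetyltransferase and H3F3A encodes the replacement histone H3.3. The averages share libraries and classes, so these values only describe.

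Further chromatin genes were taken as 6 lists of 125 genes, of which 118 were tested: other PRC2 subunits, Polycomb repressive complex 1 (PRC1) with the PR-DUB deubiquitinase, other demethylases, other deacetylases and corepressors, methyltransferases, and acetyltransferases. The lists too were chosen with earlier results of these data known, so their shares only describe. In LB TE against LB EPI 20 of the tested genes were lower and 4 higher, or 20.3% called against 15.2% of all genes, with a median log2 change of -0.35. Of the 8 tested other PRC2 subunits 2 were lower and 1 higher. RBBP4 was at 49.3 against 119 CPM (log2 change -1.10, limma adjusted p = 0.0232), and LCOR changed by -1.29 (adjusted p = 0.0411). The list of PRC1 and PR-DUB genes held 5 of the lower genes and 1 of the higher among 26. PRC1 places ubiquitin on histone H2A. KDM2B, which brings a variant PRC1 to CpG islands, was at 20.6 against 229 CPM (log2 change -2.96, SE 0.37). L3MBTL2, of another variant PRC1, changed by -2.75 (SE 0.35) and PHC1, of the canonical complex, by -2.72 (SE 0.42). The acetyltransferase KAT7 changed by -1.74 (SE 0.28) and the deacetylase HDAC2 by -1.65 (SE 0.37, adjusted p = 0.00343). KDM2B, L3MBTL2, PHC1, KAT7, HDAC2 and BCOR were called with any library left out, and the other 18 of the 24, RBBP4 and LCOR included, were not. Among them was the PRC2 accessory subunit PHF19, higher in LB TE at 20.9 against 3.58 CPM (log2 change 1.21, adjusted p = 0.00923, 0.0558 without replicate 3 and 0.0892 without replicate 5).

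**Figure D4:**
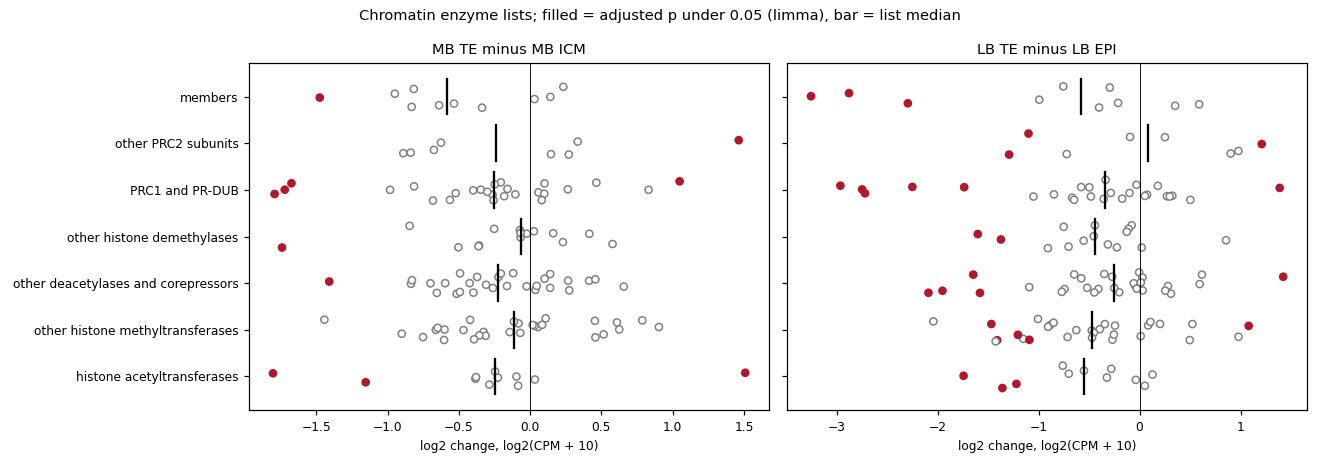
Log2 change on the log2(CPM + 10) scale of each tested gene of the 7 lists, the 10 members first, in the day 8 (left) and day 9 (right) trophectoderm comparisons, filled where the adjusted p was under 0.05, with a bar at each list's median. In the right panel 20 filled points of the 6 further lists lie left of 0 and 4 right of it.

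On day 8 the further lists held 7 genes lower and 3 higher in MB TE, or 8.47% called against 10.1% of all genes. BCOR, a partner of KDM2B in variant PRC1, changed by -1.79 (SE 0.33), KDM2B by -1.72 (SE 0.33) and L3MBTL2 by -1.68 (SE 0.31, adjusted p = 0.00107), and all 3 were called with any library left out. PHF19 was higher, at 21.9 against 1.36 CPM (log2 change 1.46, adjusted p = 0.00122, and 0.0519 without replicate 2). From MB ICM to LB EPI 8 were higher and 1 lower, or 7.63% against 5.10% of all genes. The PRC1 subunit PCGF2 rose by 2.10 (SE 0.38, adjusted p = 0.00183) and was called under all alternatives. In LB PE 3 were higher and 5 lower than in LB EPI (6.78% against 5.39% of all genes), and 5 were higher and 0 lower than in LB TE (4.24% against 5.85%). None of these 8 or 5 stayed called with every library left out in turn.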

How the data were processed

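Per the submitters' processing notes, Trim Galore, HISAT2, featureCounts and Seurat were used with build ARS-UCD1.2. The sources used here do not give versions, settings, strand handling or cell filters, so reads of overlapping antisense genes cannot be told apart. The authors deposited expression on a natural log scale, as ln(1 + reads per 10000 reads of the cell), for 286 of the 288 cells in their cell table. Undone, all values were whole multiples of each cell's smallest step (tolerance 0.1 reads), which gave the reads. Barcodes are reused between libraries: 46 of 48 occurred in all 6.

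Values were averaged per library and class (at least 3 cells), taken as log2(CPM + 10), and a gene was tested where 1 average, the size of the smallest class, reached 10 CPM. A single limma 3.58.1 fit (R 4.3.3, empirical Bayes, trend, robust, statmod 1.5.0) covered 7 classes and 12540 genes, with the library as a random block (consensus correlation 0.18, 9 residual degrees of freedom) and Benjamini-Hochberg adjustment over all genes, threshold 0.05. The script was tested on simulated data. Same-numbered averages are the same library, which is where the pairing comes from. The named genes were the 10 members, up to 3 called genes per list and direction with the largest change (a part is printed), and the 5 genes most like each of 3 members. The members and lists were chosen with earlier results of these data known. All 10 symbols were found in RefSeq's gene list for ARS-UCD2.0, another build, so no coordinates were used.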

Additional observations from a re-analysis of the deposited data

How the results depend on the processing

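Each result was recomputed under 15 alternatives: pseudocounts of 1 and 50, no filter, at least 5 cells per average, the mean over cells of log2 values, limma-voom on summed reads, quantile normalization, only cells with at least 20000 reads, no library block, and each of the 6 libraries left out. No call of a member changed direction under any of these that gave a value. Without replicate 4 there is no EB average. The calls of JARID2, KDM4A and HDAC8 in LB TE against LB EPI and of KDM4A in LB EPI against MB ICM held in all 15. In MB TE against MB ICM, where 1 member was called, 3 were with limma-voom and 2 with deep cells, and 0 to 3 with a library left out. In LB PE against LB EPI, where 0 were called, 1 was with pseudocount 50, at least 5 cells, mean log2 values, limma-voom, quantile normalization or deep cells, and 0 to 1 with a library left out. In LB PE against LB TE 1 to 3 were called with a library left out, against 3. In LB EPI against MB ICM 2 were called with mean log2 values, limma-voom or deep cells, against 1 (1 to 1 with a library left out). For the change of the TE difference between days, where 0 were called, 1 was with pseudocount 50 (KDM4A) or deep cells (JARID2) and 2 with mean log2 values (JARID2 and KDM4A). Of all genes, limma-voom called 13.3% and deep cells 12.6% in MB TE against MB ICM. The named alternatives called 3.21% to 7.96% of all genes in LB PE against LB EPI and 6.87% to 8.82% in LB EPI against MB ICM. For the change between days the shares were 0.686% (pseudocount 50), 0.920% (deep cells) and 1.24% (mean log2 values). Leaving out a library gave 3 in LB TE against LB EPI and 0 in the 4 comparisons with 0 calls other than LB PE against LB EPI. No replicate block, that is no library block, ended the KDM4A call in LB PE against LB TE (adjusted p = 0.0605, with 2 in place of 3 members called) and changed no other call of a member. That fit called 3.50% of all genes in LB PE against LB TE. In the same comparison deep cells added a call of HDAC1 (limma adjusted p = 0.0221), in a fit that called 8.00% of all genes. The causes of these changes were not tested. Depth limits EZH1, which had 7 to 50 reads per class, and LB PE, where the median cell had 39210 reads.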

Other observations

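Some libraries held 1 or 2 cells of a class, too few for an average, and these cells entered no comparison. The single LB TE cell of replicate 2 had 6.69 CPM of JARID2, 22.7 of KDM4A and 21.4 of HDAC8. The single LB EPI cell of replicate 1 had 82.2 CPM of JARID2, 209 of KDM4A and 82.2 of HDAC8. The single MB TE cell of replicate 5 had 65.1, 10.9 and 27.1 CPM of these genes in the same order, and the single MB ICM cell of replicate 3 had 328, 57.9 and 86.8. The 2 LB PE cells of replicate 2 averaged 63.0 CPM of JARID2, 42.2 of KDM4A and 14.1 of HDAC8, from 5, 15 and 5 reads. The 2 EB cells of replicate 6 averaged 285 CPM of JARID2 and 275 of KDM4A, while those of replicate 1 averaged 26.5 and 53.0, from 2 and 4 reads.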
